A study of Homo sapiens with 9 samples.

Results

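Translesion synthesis (TLS) lets cells copy damaged DNA with specialised polymerases, and REV1 is the protein on which these polymerases assemble. The RNA of 10 TLS genes was followed after REV1 was silenced, to ask whether the partners of REV1 rise to take its place or fall with it. The 10 genes are REV1, RAD18, POLH, POLI, POLK, PRIMPOL, REV3L, MAD2L2, POLD2 and POLD3. They were chosen by symbol, from their known roles, out of 18143 genes listed for every library, and all 10 were measured and passed the filter on low counts. The cells were A549, a human lung adenocarcinoma line that is a single line rather than a panel of tumours. All groups had undergone siRNA transfection and were harvested after 48 h. The control group received a scramble siRNA, and the other groups received SiREV1#1 or SiREV1#2, which are different siRNAs against the same gene. Each group had 3 libraries, so that 9 were compared.

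When a replication fork meets a damaged base, the ubiquitin ligase RAD18 tags the sliding clamp PCNA with ubiquitin, and this mark draws in the Y-family polymerases. One polymerase inserts a base opposite the lesion and a second, usually Pol zeta, extends from it. REV1 is itself a Y-family polymerase that inserts cytosine, but its C-terminal part also binds POLH, POLI, POLK and the MAD2L2 subunit of Pol zeta. PRIMPOL offers another route by starting synthesis again beyond the lesion.

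The expression level is given as FPKM, the fragments of a gene scaled by transcript length and library size, which was deposited for all 9 libraries. Fold changes were tested with edgeR on expected read counts, of which 8 libraries had a column of their own, because the count column of SiREV1#2 replicate 3 repeated that of replicate 2. Total counts were between 13059082 and 20166451, the lowest in SiREV1#1 replicate 1. The counts of the 10 genes ran from 48.0 for PRIMPOL to 3435 for POLD2, so counting alone carries an error of 14.4% to 1.71% of a value. In every group replicate 1 stood apart from replicates 2 and 3. Each call was therefore also made with the replicate number as a block, a term that compares same-numbered libraries. The difference of replicates 2 and 3 correlated at only -0.218 to 0.175 between groups. Counts of same-numbered pairs thus match replicates 2 and 3 by label only. The labels do not say whether same-numbered libraries, or the replicates of a group, were separate cultures, so the p-values measure only the spread between these libraries. The keratins KRT8 and KRT18 were high in all libraries (1372 FPKM or more) and CDKN2A, which is deleted in A549, was between 0.07 and 0.73 FPKM. The epithelial markers KRT19 (0.10 to 1.34 FPKM) and EPCAM (0.73 to 2.38 FPKM) were low, and the listed markers of blood, endothelium, fibroblasts and airway epithelium reached at most 1.57 FPKM. In bulk RNA, fewer cells with a transcript and less transcript per cell cannot be told apart.

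Sequence upstream of the start sites was available for 9 of the 10 genes (RefSeq, GRCh38.p14), all except POLD3. It is shown for RAD18, POLH and POLD2, partners for which it was at hand. Each was called lower after a REV1 siRNA in at least 1 fit with the block. Of these, only RAD18 passed in edgeR over all libraries. Capitals mark the NRF1 palindrome GCGCATGCGC in RAD18 and the Sp1 box GGGCGG, read on either strand, in the other genes, where CCGCCC is the box on the opposite strand.
RAD18, chr3:8963554-8963583, minus strand: cagaagcctgGCGCATGCGCagtacaagcc
POLH, chr6:43576076-43576149, plus strand: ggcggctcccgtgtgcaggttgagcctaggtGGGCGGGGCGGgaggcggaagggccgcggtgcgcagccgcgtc
POLD2, chr7:44123669-44123798, minus strand: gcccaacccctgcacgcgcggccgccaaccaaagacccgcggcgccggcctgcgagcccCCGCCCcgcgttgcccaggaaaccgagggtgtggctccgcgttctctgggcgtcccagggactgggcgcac

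The RAD18 stretch runs from position -111 to -82 relative to the RefSeq start site and was cut around the palindrome. The longest RAD18 stretch free of annotated exons, from -203 to -122, held neither the palindrome nor the Sp1 box. The RAD18 and POLD2 stretches are upstream of the RefSeq starts. They lie inside the longer GENCODE spans of these genes, which are given below. In POLH the boxes overlap, within a stretch that ends at position -36. Both strands of the 250 bases upstream of each start were searched, in 11 windows because REV3L and MAD2L2 have 2 annotated starts each, for these motifs, for the NF-Y box CCAAT and for the E2F boxes TTTCCCGC and TTTGGCGC. The Sp1 box was present in 8 of 9 genes and in 42.6% of 35116 human promoter windows of equal kind. Shares here and below are per window, while the counts are per gene, with 2 windows each for REV3L and MAD2L2. The POLH and POLD2 stretches shown were 78.4% and 76.2% G or C, and base content was not matched. The counts are therefore not read as an excess over the shares. The NRF1 palindrome occurred in RAD18 alone of the 9, against 1.03% of those windows. The E2F box TTTCCCGC was found in POLI and at 1 of the starts of REV3L, against 1.39% of the windows. CCAAT was found in POLD2 and at 1 of the starts of MAD2L2, against 32.0%, and TTTGGCGC in 0 of the 9 genes. These matches describe the letters in the windows and were not tested for binding.

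In scramble cells, POLD2, an accessory subunit of the replicative Pol delta, was by far the most abundant of the 10 transcripts, at 102.6 ± 7.95 FPKM (SD, n = 3). MAD2L2 followed at 23.2 ± 1.86 FPKM. POLK had 11.7 ± 5.51, POLD3 10.8 ± 3.28, RAD18 10.3 ± 4.21, REV1 7.86 ± 0.61 and POLH 7.08 ± 1.27 FPKM. POLI was at 4.85 ± 1.25, REV3L at 4.39 ± 2.15 and PRIMPOL at 2.10 ± 1.19 FPKM. POLD2 did not overlap MAD2L2, and MAD2L2 did not overlap POLK, but from POLK downwards each gene overlapped the next one in the order. Among the 18143 listed genes, POLD2 stood at the 96.1 percentile of scramble levels, REV1 at the 61.2 and PRIMPOL at the 42.8 percentile.

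**Figure D1:**
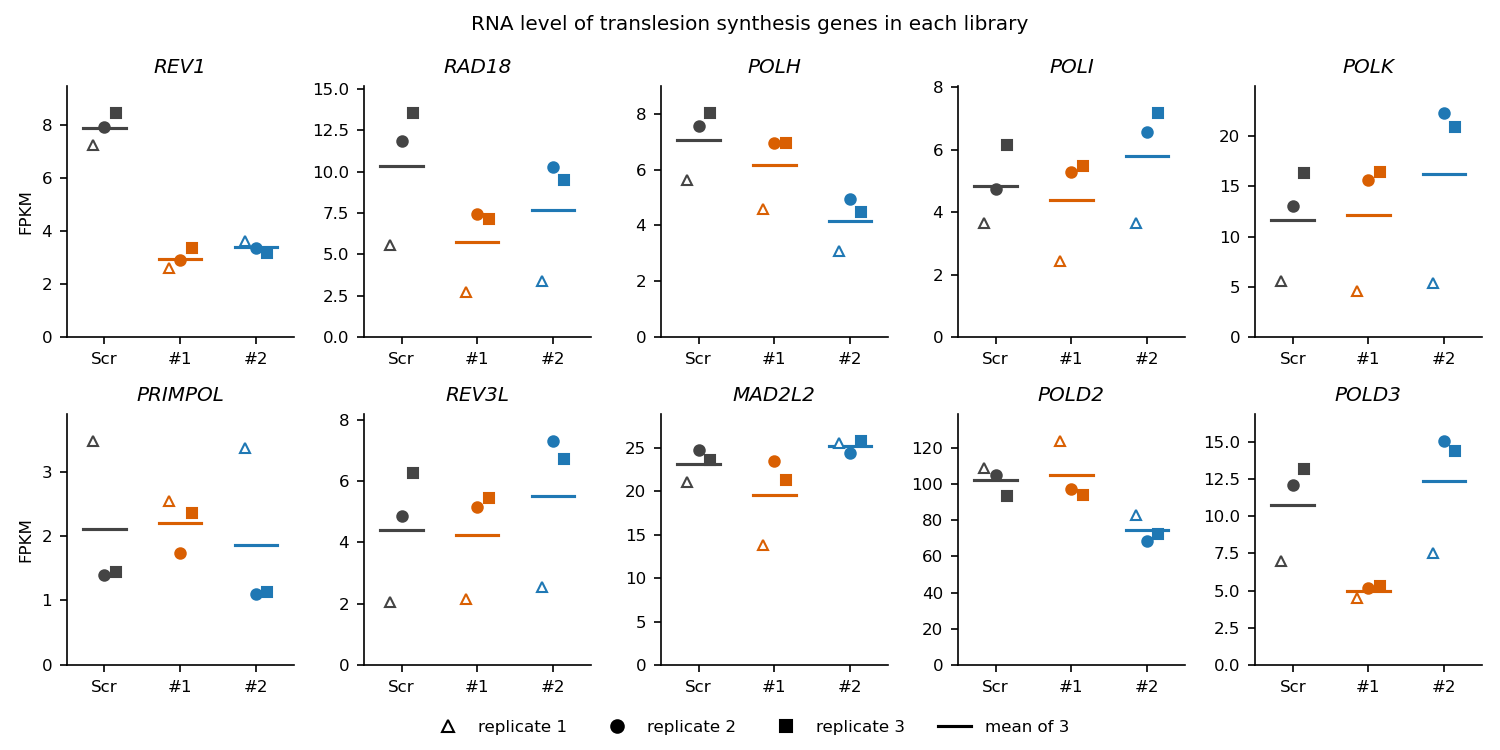
Each panel plots the FPKM of one gene (vertical axis, from 0) in the 3 scramble (Scr), 3 SiREV1#1 (#1) and 3 SiREV1#2 (#2) libraries, with the symbol giving the replicate number and the line the mean of 3. REV1 was between 2.60 and 3.62 FPKM in all 6 siRNA libraries and 7.23 or more in scramble, POLD3 was below scramble only after SiREV1#1, and the open triangles of replicate 1 lay low for RAD18, POLK and REV3L.

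REV1 RNA was lowered to a similar level by both siRNAs. The gene is on chromosome 2 (99400475 to 99490035, minus strand, GRCh38 with GENCODE release 29). It was at 7.23, 7.90 and 8.44 FPKM in the scramble libraries, at 2.60, 2.92 and 3.36 after SiREV1#1 and at 3.62, 3.36 and 3.18 after SiREV1#2. The siRNA libraries did not overlap scramble, and the means were 37.7% and 43.1% of the scramble mean (p = 0.1 in a two-sided exact permutation test in either case, which is the lowest value possible with 3 against 3). The log2 fold change was -1.26 after SiREV1#1 (95% interval -1.66 to -0.86, adjusted p = 0.042, edgeR) and -1.33 after SiREV1#2 (-1.79 to -0.87, adjusted p = 0.154, edgeR). With the replicate block both passed, at -1.26 (adjusted p = 0.00165, edgeR) and -1.27 (adjusted p = 0.00989, edgeR). The adjusted p after SiREV1#1 was above 0.05 in each of the 8 fits without a block that left out 1 library. The block call after SiREV1#2 was lost without replicate 2 (-1.19), in a fit that holds 1 SiREV1#2 library. Of the REV1 exon bases, 852 (11.0%) lie opposite exons of EIF5B, a translation initiation factor at 42.8 to 62.2 FPKM, and no source used here states whether the libraries kept the strand.

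RAD18, the ligase that starts TLS by ubiquitinating PCNA, was lower than scramble in 3 of 3 same-numbered pairs after each siRNA, as were 35.5% of 11429 genes after SiREV1#1 and 29.7% after SiREV1#2. It lies on the minus strand of chromosome 3 (8775402 to 8963773). Its scramble libraries had 5.56, 11.9 and 13.6 FPKM in replicates 1, 2 and 3. The SiREV1#1 libraries had 2.72, 7.45 and 7.13, and the SiREV1#2 libraries 3.38, 10.3 and 9.49 FPKM. Replicate 1 was the lowest library of each group, so the groups overlapped although every same-numbered comparison pointed down (exact permutation test, p = 0.3 and 0.5). The mean was 55.9% of scramble after SiREV1#1 and 74.7% after SiREV1#2. The log2 fold change after SiREV1#1 was -0.72 (95% interval -1.49 to 0.05, adjusted p = 0.555, edgeR), and RAD18 fell with the replicate block (-0.72, -1.04 to -0.40, adjusted p = 0.0162, edgeR). Without a block it passed in limma on replicates 2 and 3 only (-0.72 on the log2(FPKM + 1) scale), in a fit that called most genes. The edgeR call with the block was lost without replicate 2 (-0.75, adjusted p = 0.0811, edgeR) and without replicate 3 (-0.65, adjusted p = 0.166, edgeR). After SiREV1#2 the value was -0.49 (-1.36 to 0.38), and -0.43 with the block (-0.80 to -0.05, adjusted p = 0.223, edgeR). With 1 library left out it ran from -0.07 without SiREV1#2 replicate 1 to -1.07 without SiREV1#2 replicate 2, the other library of that group with counts. limma with the block, which holds all 9 libraries, called RAD18 after SiREV1#2 at -0.42 (adjusted p = 0.0474). The siRNAs differed at RAD18 by -0.29 with the block (95% interval -0.66 to 0.08, adjusted p = 0.25, edgeR), an interval that includes both no difference and a larger fall after SiREV1#1.

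The polymerases that insert bases opposite lesions did not move as a group. POLH, or Pol eta, which copies ultraviolet photoproducts accurately and is lost in xeroderma pigmentosum variant, was lower after SiREV1#2. It lies on the plus strand of chromosome 6 (43576150 to 43615660). POLH had 5.64, 7.56 and 8.03 FPKM in scramble, 4.60, 6.96 and 6.97 after SiREV1#1 and 3.09, 4.95 and 4.48 after SiREV1#2. All 3 SiREV1#2 libraries lay below all scramble libraries, whereas the SiREV1#1 libraries overlapped scramble despite being lower in 3 of 3 pairs. The SiREV1#2 mean was 59.0% of scramble (exact permutation p = 0.1), with a log2 fold change of -0.71 (95% interval -1.31 to -0.11, adjusted p = 0.74, edgeR). With the block this was -0.66 (-0.98 to -0.34, adjusted p = 0.0607, edgeR). On FPKM, which adds the ninth library, limma with the block gave -0.65 on the log2(FPKM + 1) scale (adjusted p = 0.00668), and DESeq2 with the block gave -0.64 (adjusted p = 0.0108). After SiREV1#1 POLH was at -0.14 (-0.67 to 0.38) without and -0.15 (-0.42 to 0.12) with the block.

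POLI, or Pol iota, an error-prone inserter on chromosome 18 (54269404 to 54321266, plus strand) was called after neither siRNA in the fits over all libraries. It had 3.66, 4.74 and 6.15 FPKM in scramble, 2.45, 5.29 and 5.48 after SiREV1#1 and 3.66, 6.56 and 7.18 after SiREV1#2. Replicate 1 was the lowest in each group and the groups overlapped. With the block, the log2 fold changes were -0.04 (95% interval -0.38 to 0.29) and 0.18 (-0.21 to 0.57), and neither passed the test. After SiREV1#2 POLI passed as a rise only without replicate 1, at 0.32 in edgeR with the block (adjusted p = 0.0324) and 0.30 in limma on replicates 2 and 3 (adjusted p = 0.032), in fits that called 42.3% and 55.4% of all genes.

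POLK, or Pol kappa, which bypasses bulky adducts and extends mismatched ends, varied more between replicates than between groups. It lies on chromosome 5 (75511756 to 75601144, plus strand). POLK was at 5.60, 13.1 and 16.4 FPKM in scramble, 4.56, 15.6 and 16.4 after SiREV1#1 and 5.40, 22.3 and 20.9 after SiREV1#2. Replicate 1 was below 6 FPKM in each group, whereas replicates 2 and 3 of SiREV1#2 exceeded every other library. With the block the log2 fold change was 0.08 (-0.30 to 0.46) after SiREV1#1 and 0.37 (-0.08 to 0.81, adjusted p = 0.372, edgeR) after SiREV1#2. POLK likewise passed after SiREV1#2 without replicate 1, at 0.70 in edgeR with the block and 0.53 on the log2(FPKM + 1) scale in limma on replicates 2 and 3.

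PRIMPOL, the primase-polymerase, had the lowest mean of the 10 genes in every group and was highest in replicate 1 of each. In replicate 1 of every group, REV3L was lower than PRIMPOL. It lies on chromosome 4 (184649613 to 184694963, plus strand). It was at 3.48, 1.39 and 1.44 FPKM in scramble, 2.55, 1.73 and 2.35 after SiREV1#1 and 3.36, 1.10 and 1.13 after SiREV1#2. SiREV1#2 was lower in 3 of 3 pairs by small amounts, SiREV1#1 was lower in 1 pair and higher in 2, and the groups overlapped. With the block the log2 fold changes were 0.26 (-0.32 to 0.84) and -0.0016 (-0.65 to 0.64). Without replicate 1, PRIMPOL passed as a rise after SiREV1#1, at 0.55 in edgeR with the block (adjusted p = 0.0298) and 0.32 in limma on replicates 2 and 3 (adjusted p = 0.0263). PRIMPOL shares 346 exon bases (12.2%) with CENPU on the opposite strand, a kinetochore gene that was likewise highest in replicate 1, at 6.95 against 2.78 and 3.43 FPKM in scramble. CENPU had 2.26, 1.76 and 1.64 FPKM after SiREV1#1 and 6.47, 2.38 and 2.27 after SiREV1#2. After SiREV1#1 CENPU was thus below scramble in every same-numbered pair, whereas PRIMPOL was above it in replicates 2 and 3. The part of CENPU reads in the PRIMPOL values was not tested.

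Pol zeta, which extends from the inserted base, consists of the catalytic subunit REV3L, MAD2L2 (REV7) as the link to REV1, and POLD2 and POLD3, both shared with Pol delta. REV3L, on chromosome 6 (111299028 to 111483715, minus strand), had 2.05, 4.86 and 6.27 FPKM in scramble. It had 2.15, 5.16 and 5.45 after SiREV1#1 and 2.54, 7.32 and 6.71 after SiREV1#2. SiREV1#2 was higher than scramble in 3 of 3 pairs, as were 25.9% of all genes, and replicate 1 was again the lowest of each group. The log2 fold change after SiREV1#2 was 0.18 (95% interval -1.22 to 1.58), and 0.40 with the block (0.02 to 0.79, adjusted p = 0.256, edgeR), so REV3L did not pass. It passed as a rise without replicate 1, at 0.49 in edgeR with the block and 0.30 in limma on replicates 2 and 3. After SiREV1#1 it was -0.0013, and 0.05 with the block (-0.28 to 0.38). The ratio of REV3L to REV1 FPKM was 28.4% to 74.3% in scramble, 82.7% to 177% after SiREV1#1 and 70.2% to 218% after SiREV1#2. REV1 is the silenced gene, so this ratio rises even where REV3L does not move. The REV3L mean itself was 96.8% of scramble after SiREV1#1 and 125.7% after SiREV1#2.

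MAD2L2, on chromosome 1 (11674480 to 11691650, minus strand), varied little between libraries, apart from replicate 1 of SiREV1#1. It had 21.1, 24.7 and 23.6 FPKM in scramble, 13.9, 23.5 and 21.4 after SiREV1#1 and 25.6, 24.4 and 25.9 after SiREV1#2. It was lower in 3 of 3 pairs after SiREV1#1, by most in replicate 1, and the ranges of each siRNA overlapped scramble. The log2 fold changes with the block were -0.19 (-0.55 to 0.18) and 0.18 (-0.24 to 0.61), and neither passed.

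By FPKM, the Pol delta subunits in Pol zeta were lower without overlap after different siRNAs. In edgeR over all libraries only POLD3 was called, and only with the block. POLD3, on chromosome 11 (74493851 to 74669117, plus strand), carries the PCNA-binding end of Pol delta and also binds REV1. It was at 7.02, 12.1 and 13.2 FPKM in scramble, 4.50, 5.16 and 5.34 after SiREV1#1 and 7.54, 15.1 and 14.4 after SiREV1#2. All SiREV1#1 libraries were below all scramble libraries, at 46.5% of the scramble mean (exact permutation p = 0.1), and the SiREV1#2 libraries were above scramble in 3 of 3 pairs but overlapped it. After SiREV1#1 the log2 fold change was -0.97 (95% interval -1.74 to -0.21, adjusted p = 0.353, edgeR), and POLD3 fell in the fit with the block (-0.92, -1.41 to -0.44, adjusted p = 0.0284, edgeR). That call was lost without replicate 2 (-0.81, adjusted p = 0.10, edgeR) and without replicate 3 (-0.76, adjusted p = 0.187, edgeR). After SiREV1#2 it was 0.17 (-0.67 to 1.02), and 0.23 with the block (-0.32 to 0.79), and it passed as a rise without replicate 1 (0.40 in edgeR with the block, 0.21 in limma on replicates 2 and 3).

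POLD2, on chromosome 7 (44114681 to 44124358, minus strand), connects the catalytic subunit to POLD3. It was at 109, 105 and 93.6 FPKM in scramble, 124, 97.2 and 94.0 after SiREV1#1 and 83.1, 68.5 and 72.5 after SiREV1#2. All SiREV1#2 libraries were below all scramble libraries, at 72.8% of the scramble mean (exact permutation p = 0.1), while the SiREV1#1 libraries overlapped scramble. The log2 fold change after SiREV1#2 was -0.40 (95% interval -0.97 to 0.16, adjusted p = 1, edgeR), and -0.50 with the block (-0.87 to -0.13, adjusted p = 0.158, edgeR). It passed in limma with the block (-0.45 on the log2(FPKM + 1) scale, adjusted p = 0.0312). After SiREV1#1 POLD2 was at 0.12 (-0.38 to 0.63). The ratio of POLD3 to POLD2 FPKM was 6.45%, 11.5% and 14.0% in scramble, 3.63%, 5.31% and 5.68% after SiREV1#1 and 9.08%, 22.0% and 19.8% after SiREV1#2. This ratio was below scramble in every SiREV1#1 library, and above the same-numbered scramble library in every SiREV1#2 library.

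**Figure D2:**
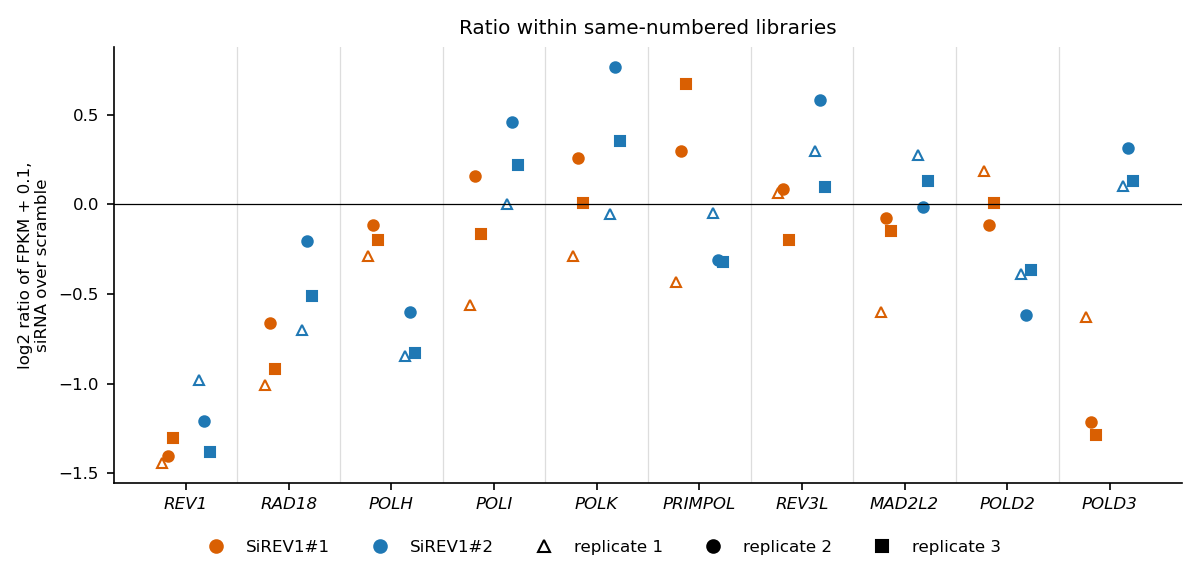
The log2 ratio of FPKM + 0.1 in each siRNA library over the scramble library of the same number (vertical axis) is plotted for each gene, with color giving the siRNA and the symbol the replicate number. REV1, RAD18 and POLH are below 0 in all 6 comparisons, POLD3 is below 0 for SiREV1#1 and above 0 for SiREV1#2, and POLD2 is below 0 in all 3 SiREV1#2 comparisons.

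Counted over the 10 genes, calls against scramble in the fits over all libraries were few and all were falls, whereas both fits that left out replicate 1 of every group also called rises. After SiREV1#1, 1 of 10 passed without the block, REV1, where 0.296% of 14205 genes did, and 3 of 10 with the block, REV1, RAD18 and POLD3, where 12.3% of all genes did. After SiREV1#2, edgeR called 0 of 10 without the block (0% of all genes), with 2 genes, REV1 and POLH, at an unadjusted p under 0.05. The share of all genes under that unadjusted cut was not computed, here or below. DESeq2 and limma without the block each called 1, REV1, against 1.44% and 0.577% of all genes. With the block edgeR called REV1 alone, against 1.91% of all genes, while DESeq2 called REV1 and POLH, against 5.7%, and limma called REV1, RAD18, POLH and POLD2, against 11.3%. After SiREV1#1, DESeq2 and limma called the same 3 genes as edgeR with the block, against 15.8% and 19.7% of all genes. Without the block they called REV1 alone, against 3.94% and 1.36%. None of these fits over all libraries called a rise of any of the 9 partners after either siRNA. Rises were uncommon among all 14205 genes in edgeR. With the block there were 756 after SiREV1#1 and 70 after SiREV1#2, and without it 5 and 0. The absence of a called rise at 9 genes is therefore not read as a result about the partners. REV1 is the siRNA target, so its fall follows from the design and is not a call among the partners. Without it, the block fits called RAD18 and POLD3 after SiREV1#1. After SiREV1#2 they called no partner in edgeR, POLH in DESeq2, and RAD18, POLH and POLD2 in limma. The shares of all genes given above apply to these calls. In the smaller fit with the block and without replicate 1, which holds 1 SiREV1#2 library, 4 genes were called after SiREV1#1, of which PRIMPOL rose and REV1, RAD18 and POLD3 fell. After SiREV1#2 it called 7, of which POLI, POLK, REV3L and POLD3 rose and REV1, POLH and POLD2 fell. That fit called 51.2% and 42.3% of all genes, and 56.3% between the siRNAs. In limma on replicates 2 and 3 alone 4 genes were called after SiREV1#1, 1 of them (PRIMPOL) as a rise, and 8 after SiREV1#2, 4 of them (POLI, POLK, REV3L and POLD3) as rises. Between the siRNAs 9 genes were called. The shares of all genes called in that fit were 56.8%, 55.4% and 70.2%.

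By FPKM, REV1 and POLD3 were lower without overlap after SiREV1#1, where 13.8% of 11429 genes with a mean over 1 FPKM were so, and REV1, POLH and POLD2 after SiREV1#2, where 9.52% were. The median log2 fold change of the 10 genes was -0.08 after SiREV1#1 and 0.10 after SiREV1#2, beside 0.0024 and 0.02 over all genes tested. Both comparisons use the same scramble libraries, and REV1, the siRNA target, is included in these counts and medians.

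**Figure D3:**
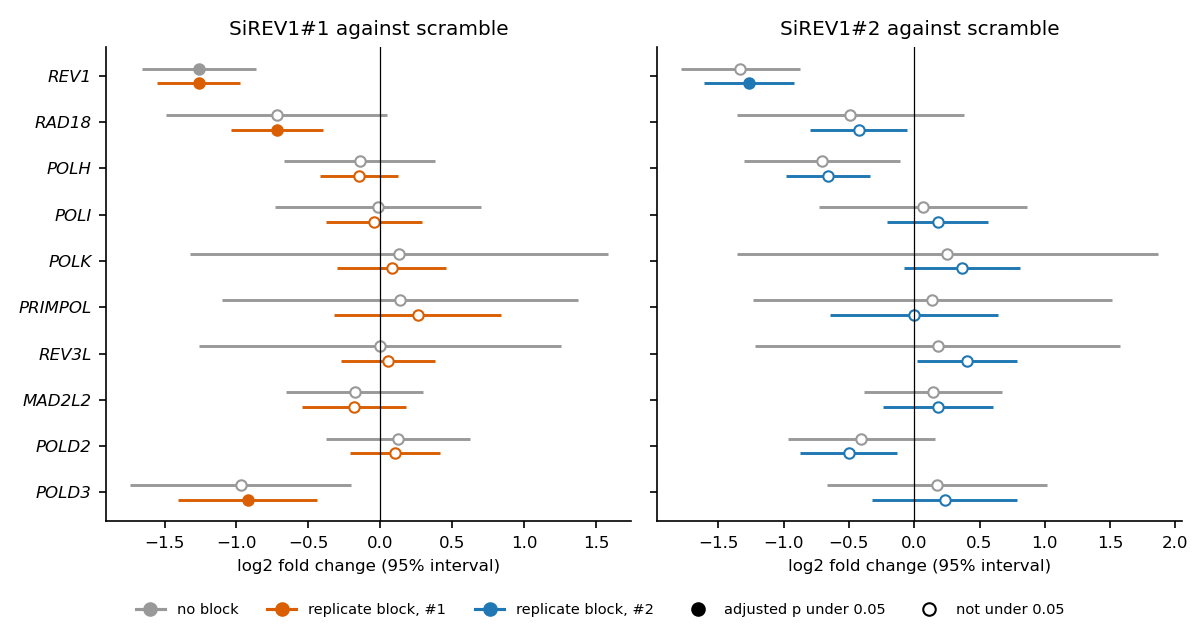
Points are log2 fold changes against scramble from edgeR and bars their 95% intervals (horizontal axis), in gray without and in color with the replicate block, and filled points have an adjusted p under 0.05. Filled points appear at REV1 for both siRNAs and at RAD18 and POLD3 for SiREV1#1 only, and the block narrows the intervals of POLK, REV3L and PRIMPOL most visibly.

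Compared directly, the siRNAs differed at POLD3, POLD2 and POLH in edgeR with the replicate block, and in edgeR without it at none of the 10 genes. Without the block, edgeR called a difference at 0 of 10 genes, where 0.676% of all genes differed, with 1 gene, POLD3, at an unadjusted p under 0.05, and DESeq2 and limma also called 0, against 6.16% and 5.21% of all genes. With the block these 3 of 10 differed, against 17.6% of all genes, and DESeq2 called the same 3 against 20.3%. limma with the block added RAD18, against 36.5%. POLD3 was lower after SiREV1#1 than after SiREV1#2 by -1.16 on the log2 scale (95% interval -1.71 to -0.60, adjusted p = 0.0168, edgeR). POLD2 was higher by 0.60 (0.23 to 0.97, adjusted p = 0.0383, edgeR) and POLH by 0.51 (0.19 to 0.83, adjusted p = 0.0422, edgeR). These calls were lost without replicate 2 (-0.76, 0.64 and 0.55), in a fit that holds 1 SiREV1#2 library. Those of POLD2 and POLH were also lost without replicate 3 (0.62 and 0.50). The other Pol zeta subunits, REV3L and MAD2L2, did not pass (-0.35 and -0.37, adjusted p = 0.178 and 0.204, edgeR). For REV1 the difference was 0.0020 (-0.34 to 0.34).

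Replicate 1 differed from replicates 2 and 3 by more than either siRNA moved most of the partners. POLK in replicates 2 and 3 averaged 2.63, 3.51 and 4.00 times its replicate 1 value in scramble, SiREV1#1 and SiREV1#2, and REV3L 2.71, 2.47 and 2.76 times. RAD18 had 2.28, 2.68 and 2.92 times. REV1, by comparison, had 1.13, 1.21 and 0.90 times, and POLD2 0.91, 0.77 and 0.85 times. PRIMPOL went the other way, with 0.41, 0.80 and 0.33 times. For POLD3 the ratio was 1.80 in scramble and 1.95 after SiREV1#2, but 1.17 after SiREV1#1, where all 3 libraries were low.

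The transcript length that links a count to its FPKM was computed for each library, since it moves with the isoforms to which reads were assigned. For POLH it was 5074 to 6013 bases, above the 3540 bases of POLH-202, its longest annotated coding transcript. The cause of that gap was not tested, and annotated lengths are a loose guide here. For MAD2L2 the implied length stayed between 1102 and 1105 bases and for POLD2 between 1632 and 1649 bases. For RAD18 it was 5156 to 5828 bases in the 3 libraries of replicate 1, but 3422 to 3612 bases in those of replicates 2 and 3, while its longest annotated coding transcript, RAD18-201, has 5886 bases. The ratio of the averages was 1.52, and 0.201% of 10955 genes had one at least as large. The FPKM shift of RAD18 in replicate 1 thus holds a change in assigned length. As CPM, the count scaled to library size, RAD18 was 27.8, 41.9 and 45.4 in scramble, 17.6, 26.7 and 25.4 after SiREV1#1 and 18.2 and 36.4 after SiREV1#2, a smaller gap between replicates than in FPKM.

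REV1 showed another pattern, by group. Its implied length was 4507 to 4612 bases in scramble and 4653 to 4863 after SiREV1#1, but 3857 and 4118 bases in the 2 SiREV1#2 libraries with counts, which lay below all others. The SiREV1#2 average was 0.85 of that of the other libraries, and 0.0456% of the genes had a ratio as low without overlap. Its longest annotated coding transcript, REV1-201, has 4751 bases. REV1 FPKM after SiREV1#2 therefore stood higher relative to counts, which were 14.1 and 13.6 CPM after SiREV1#2 and 13.5, 14.1 and 16.1 after SiREV1#1.

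**Figure D4:**
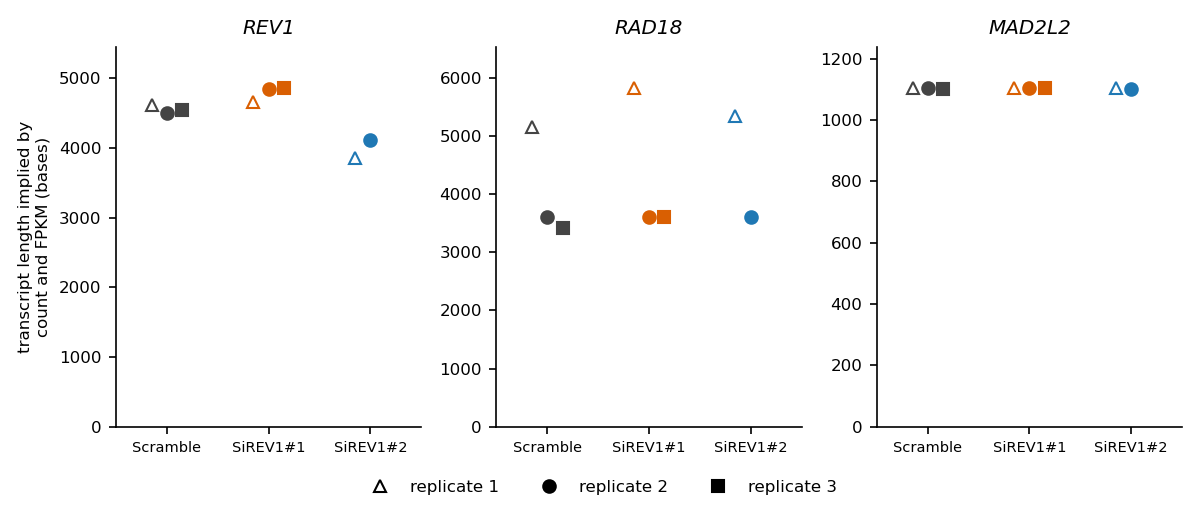
The transcript length implied by the count, the FPKM and the library total (vertical axis, bases, from 0) is plotted for REV1, RAD18 and MAD2L2 in the 8 libraries with counts, with the symbol giving the replicate number. RAD18 is at 5156 bases or more in replicate 1 of each group and at 3612 or less elsewhere, REV1 is lowest in both SiREV1#2 libraries, and MAD2L2 is level.

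The genes around this pathway were read from 5 lists, with the block fit named first because no gene of the lists passed in edgeR without it (10 had an unadjusted p under 0.05 after SiREV1#1). After SiREV1#1, 6 of 54 genes tested fell and 0 rose, in a fit that called 12.3% of all genes, 6.96% as falls. With 1 or 2 genes called in a list, the counts are read as descriptions of single genes. Genes that fell were named because they passed this fit, so lack of overlap between the same libraries is not separate evidence. By FPKM, 13.8% of 11429 genes were lower without overlap after SiREV1#1. After SiREV1#2, 0 passed in this edgeR fit, with 2 at an unadjusted p under 0.05. Counts at an unadjusted p have no share of all genes beside them and are not read as a result about the lists.

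Among the 15 genes of the PCNA ubiquitin switch, 2 fell after SiREV1#1, SPRTN and RFWD3, beside 6.96% of all genes. Of the 15, 13 had negative values, beside 7028 of all 14205 genes. The median was -0.19 beside 0.0042 over all genes. The 15 genes share the same libraries, so this count only describes them. SPRTN, a protease that clears DNA-protein crosslinks and binds ubiquitinated PCNA, had 4.25, 11.1 and 11.7 FPKM in scramble. It had 1.19, 3.94 and 4.14 after SiREV1#1 and 3.83, 12.6 and 11.4 after SiREV1#2. Every SiREV1#1 library was below every scramble library, while SiREV1#2 overlapped it. The log2 fold change of SPRTN was -1.45 (95% interval -1.76 to -1.14, adjusted p = 0.00133, edgeR) after SiREV1#1 and 0.05 after SiREV1#2, and the siRNAs differed by -1.50 (adjusted p = 0.0017, edgeR). RFWD3, a ubiquitin ligase that acts on RPA at stalled forks, changed by -0.64 (adjusted p = 0.0477, edgeR), and by -0.25 (adjusted p = 0.583, edgeR) after SiREV1#2. PCNA itself had -0.28 (95% interval -1.003 to 0.45) and -0.47 (-1.32 to 0.38).

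Of the 11 recruiters of RAD18 and REV1 and RPA subunits, 1 fell after SiREV1#1 (6.96% of all genes), SLF1, which brings the SMC5/6 complex to RAD18. The median of this list was -0.16. SLF1 had 3.95, 5.30 and 6.11 FPKM in scramble, 1.41, 3.04 and 2.94 after SiREV1#1 and 3.33, 5.12 and 4.87 after SiREV1#2. It was lower in every SiREV1#1 library than in any scramble library. The log2 fold change was -0.98 (-1.30 to -0.65, adjusted p = 0.00592, edgeR), against -0.15 after SiREV1#2, with a difference of -0.82 (adjusted p = 0.0145, edgeR). RPA2, whose protein RPA32 coats exposed single strands, did not pass after either siRNA (-0.16 and 0.42, adjusted p = 0.437 and 0.174, edgeR), but the siRNAs differed by -0.58 (adjusted p = 0.03, edgeR). RPA2 was chosen after its values were seen.

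Among the other repair polymerases, 1 of 6 tested fell after SiREV1#1, beside 6.96% of all genes. It was POLQ (Pol theta), which joins broken ends at short homologies. POLQ had 2.31, 2.49 and 3.00 FPKM in scramble and 1.45, 1.28 and 1.55 after SiREV1#1, with no overlap, and 1.66, 2.98 and 2.57 after SiREV1#2. Its log2 fold change was -0.77 (adjusted p = 0.0468, edgeR) after SiREV1#1 and 0.0001 after SiREV1#2, and the difference of -0.77 did not pass (adjusted p = 0.0599, edgeR).

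The replicative polymerases and the clamp loader had the lowest median of the lists after SiREV1#1, -0.34, with 13 of 15 values negative. After SiREV1#2 the median was -0.16, with 11 of 15 negative. Over all genes, 7028 of 14205 values were negative after SiREV1#1 and 6986 after SiREV1#2. Genes of a list share the same libraries, so these counts only describe them. Of the 15, 2 fell after SiREV1#1, beside 6.96% of all genes. RFC5, a clamp loader subunit, fell by 0.65 (adjusted p = 0.0331, edgeR) and POLA2, a subunit of Pol alpha, fell by 0.53 (adjusted p = 0.0364, edgeR) after SiREV1#1. RFC5 was also lower after SiREV1#2 in FPKM, at 15.7, 11.3 and 11.3 against 20.7, 17.3 and 17.8 in scramble, but did not pass (-0.39, adjusted p = 0.308, edgeR). Of the 7 shieldin and HORMA partners of MAD2L2, 0 passed, with medians of -0.06 and -0.05.

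**Figure D5:**
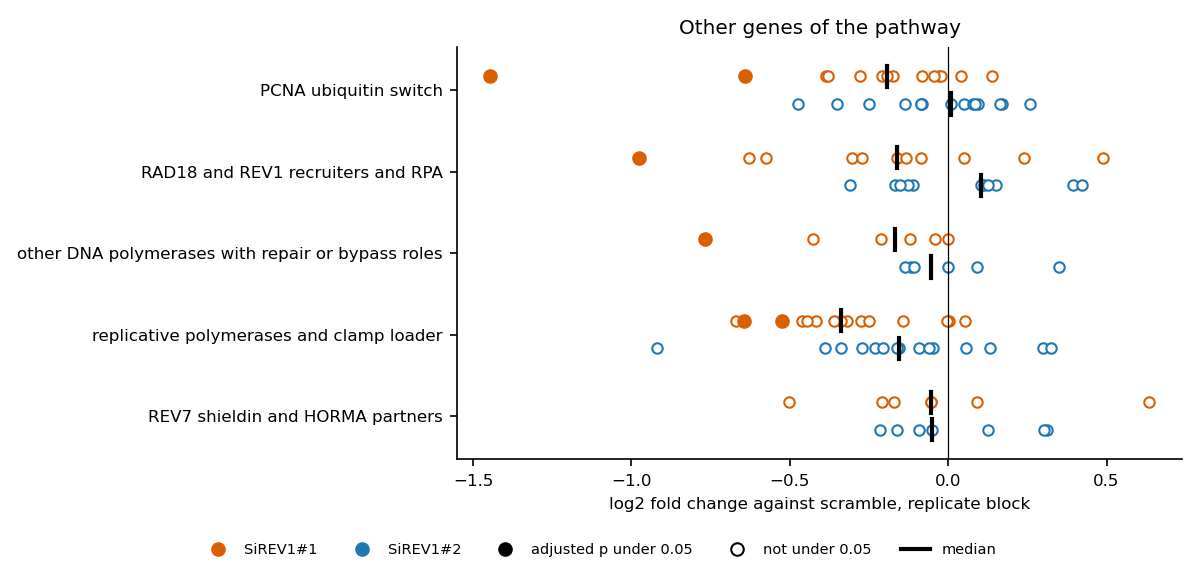
Each point is a gene of one of 5 lists at its log2 fold change against scramble in the edgeR fit with the replicate block (horizontal axis), in orange for SiREV1#1 and blue for SiREV1#2, filled where the adjusted p was under 0.05, with black bars at the medians. The 6 filled points all belong to SiREV1#1 and lie below 0, the farthest being SPRTN at -1.45.

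Likeness to REV1 was measured as the Pearson correlation of log2(FPKM + 1), centred within each replicate number, over the 9 libraries. The values share libraries and 3 groups and serve as a description. Among the closest of 11428 genes were CDCA5 (r = 0.998), a cohesin regulator, EZH2 (0.995), a histone methyltransferase, the splicing helicase SNRNP200 (0.994) and DTL (0.992), which targets PCNA-bound proteins for degradation. RAD18 was the closest of the partners, at rank 210 (r = 0.895), followed by POLH at rank 1660 (r = 0.615) and POLD3 at rank 3166 (r = 0.431). REV3L and POLK had negative values of -0.30 and -0.34.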

How the data were processed

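RNA of A549 cells was captured on oligo(dT) beads and sequenced on the BGISEQ platform. Per the labels and file headers, the authors deposited for each library expected counts per gene and FPKM values, both without further normalization. StringTie 1.3.3b and hg38 are named in the submitters' processing notes, while the aligner and the strand setting were not given in the sources used here. Libraries were grouped by their titles. Of the count values 42.6% were not whole, and they were rounded. The count column of SiREV1#2 replicate 3 repeated that of replicate 2 for 100% of genes and was counted once.

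Counts were tested with edgeR 4.0.16 (R 4.3.3), with filterByExpr, TMM and a quasi-likelihood test of all 3 groups together over 14205 genes, and Benjamini-Hochberg adjustment at 0.05. Standard errors were derived from F. Alternatives were the replicate block, DESeq2 1.42.0, limma 3.58.1 on log2(FPKM + 1) or log2(FPKM + 0.1), RLE size factors, no filter, only the 2 groups compared, the counts as deposited, replicates 2 and 3 only, and leaving libraries out. The models were first run on simulated counts with a common spread for all genes and planted changes larger than those of the 10 genes. That run does not measure how well smaller changes are found. The 10 genes, the lists and the tests were chosen with earlier results of these data known. Named from the lists were up to 4 genes with the largest change among those that passed with the block, and the 5 genes most like REV1, of which 1 is not reported here.

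Libraries of the same number deviated together from the means of their groups (correlation across genes 0.734 to 0.929 in all 9 pairs), so the block was used. Replicates 2 and 3 of different groups correlated at 0.751 to 0.914, and their difference at -0.218 to 0.175 between groups, so the correlation rests on replicate 1. The biological coefficient of variation was 0.412 without and 0.161 with the block. Depth was 13059082 to 20166451 counts. Counting errors cover sampling of reads only. Positions and exon overlaps came from GENCODE release 29, start-site sequences from RefSeq. Python 3.11.15 was used for the rest.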

Additional observations from a re-analysis of the deposited data

Results flagged for a closer look

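At 3 of the 10 genes the effects of SiREV1#1 and SiREV1#2 on the same target differed in the edgeR contrast with the replicate block, each beside 17.6% of all genes. POLD3 was lower after SiREV1#1 by -1.16 on the log2 scale and in 3 of 3 same-numbered pairs. POLD2 was higher after SiREV1#1 by 0.60 and POLH by 0.51, each in 3 of 3 pairs. The genes were picked by this contrast, which compares same-numbered libraries, so the agreement of pairs is not separate evidence. The share of all genes with such agreement was not computed. In the same contrast without the block none of them passed (adjusted p = 0.229, 0.449 and 0.436, edgeR). The groups were too small for a test of single outlying libraries.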

How the results depend on the processing

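Counts here include REV1, the siRNA target. The number of the 10 genes called after SiREV1#1, after SiREV1#2 and between the siRNAs was 1, 0 and 0 without a block. It was 3, 1 and 3 with the replicate block, also with RLE size factors, and 3, 2 and 3 with DESeq2 and the block. limma with the replicate block gave 3, 4 and 4 with either pseudocount, and replicates 2 and 3 only gave 4, 8 and 9, where 56.8%, 55.4% and 70.2% of all genes passed. With only the 2 groups compared or no filter, 0 were called after SiREV1#1 (3 and 2 at an unadjusted p under 0.05). Shares of all genes were not computed for these fits, for RLE size factors or for the counts as deposited. DESeq2 and limma without the block called 1 after SiREV1#2. So did the counts as deposited, but there the repeated column enters as a further SiREV1#2 library, so that the fit holds more columns than distinct libraries. With 1 library or replicate number left out, the counts ranged from 0 to 4, 0 to 7 and 0 to 7, the highest values with the block and without replicate 1. A lone SiREV1#2 library there, as in the block fit without replicate 2, is assumed to vary like the other groups.

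Signs turned only at values that passed in edgeR over all libraries neither without nor with the block. REV3L after SiREV1#1 was 0.051 with the replicate block, 0.0051 with DESeq2 and 0.062 with DESeq2 and the block, 0.0002 with only the 2 groups compared, 0.0055 with RLE size factors and 0.062 with these and the block. POLK after SiREV1#1 was -0.0001 and -0.0094 in limma with a pseudocount of 1 and 0.1. PRIMPOL after SiREV1#2 was -0.0016 with the block, -0.13 with the counts as deposited, -0.14 and -0.23 in limma and -0.19 with replicates 2 and 3 only, where POLD2 after SiREV1#1 was -0.054. With the block and without 1 replicate number, values turned to 0.075 for POLI, -0.016 for POLK, 0.031 for REV3L and -0.038 for POLD2 after SiREV1#1, and to -0.011 for POLK, -0.16 and -0.10 for PRIMPOL, -0.035 for MAD2L2 and -0.049 for POLD3 after SiREV1#2. With libraries left out, the values ranged after SiREV1#1 from -0.34 to 0.33 for REV3L, -0.19 to 0.47 for POLK, -0.087 to 0.71 for PRIMPOL, -0.15 to 0.19 for POLI and -0.0885 to 0.24 for POLD2. After SiREV1#2 they ranged from -0.74 to 0.73 for REV3L, -1.0025 to 0.92 for POLK, -0.85 to 0.72 for PRIMPOL, -0.32 to 0.37 for POLI, -0.035 to 0.40 for MAD2L2 and -0.43 to 0.60 for POLD3. The difference between the siRNAs at RAD18, called in limma with the block, ranged from -0.65 to 0.36, the latter without SiREV1#2 replicate 2. REV1 stayed negative in all fits, from -1.38 to -1.15 after SiREV1#1 and -1.38 to -1.01 after SiREV1#2. The cause of these changes was not tested. The block changed no call of the 10 genes other than those named. PRIMPOL had 48 to 133 counts per library, with a counting error of up to 14.4%.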
